A study of Mus musculus with 16 samples.

Results

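The comparison is between the floxed control libraries of 2 mouse lines, 4 from mice with floxed Irf1 and 4 from mice with floxed Ikbkb, chosen by genotype label alone, which makes 8 of the 16 libraries of the series. Neither group carries a deletion. The label IRF1FF marks the Irf1 controls and the label IKKbFF the Ikbkb controls, and the other 8 libraries carry the labels IRF1deltaXCR1 and IKKbdeltaXCR1, named for XCR1, a chemokine receptor of type 1 conventional dendritic cells (cDC1s). All host mice bore YUMM1.7 tumours, a transplantable mouse melanoma line, which were taken at 200 to 350 mm3 and received no other treatment. The labels describe the hosts as female but name only Ikbkb mice in their notes, so the genotype of the Irf1 libraries rests on that label. No age, strain background, litter, sort or day is given, nor is it stated that each replicate was its own animal. The p-values therefore cover only the spread between these libraries, which may be technical. The mouse line and anything else that differed between both sets of libraries cannot be told apart.

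The series describes the RNA as coming from sorted cDC1s, the dendritic cells that take up dead tumour cells and present their antigens to CD8 T cells. Inside a tumour such cells lie among macrophages, lymphocytes, fibroblasts that lay down collagen, and blood vessels whose endothelium is wrapped by mural cells. IKK-beta, the product of Ikbkb, releases NF-kB from its inhibitor, and IRF1 is a transcription factor induced by interferon. Both act in the maturation of dendritic cells. A comparison of controls asks how far both sets of libraries already differed where neither gene was deleted.

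The 8 libraries held 16478671 to 24303369 counts. The library with the fewest counts, Ikbkb control 4, detected the most genes, 22900. The other Ikbkb controls detected 18540 to 19599 genes and the Irf1 controls 20268 to 21082. RNA was amplified from 1000 pg by a full-length method, and values are CPM, counts scaled to the TMM-adjusted library total. All values listed below run from replicate 1 to replicate 4. Genes of cDC1 identity were a small part of the RNA in both groups. They summed to 2557, 3385, 1216 and 2664 CPM in the Irf1 controls, against 2798, 2012, 11664 and 1561 CPM in the Ikbkb controls. The receptor gene Xcr1 itself measured 65.9, 121, 12.1 and 61.8 CPM in the Irf1 controls, against 74.2, 51.9, 213 and 20.6 CPM in the Ikbkb controls. Neither measure separated the groups, and Ikbkb control 3 stood above the other 7 libraries in both. That library also stood apart on the second principal component of all genes, and Irf1 control 4 on the third. Counts without 1 or both of them are therefore given for many lists, though not for every list that moved. The first component, with 22.8% of the variance, put the 8 libraries of the Irf1 set on 1 side and the 8 of the Ikbkb set on the other. In bulk RNA, fewer cells of a type and less RNA per cell cannot be told apart.

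The Irf1 controls held more RNA of collagens, other matrix genes and markers of fibroblasts, mural cells and endothelium, and less RNA of immediate-early genes, NF-kB targets, respiratory chain subunits and muscle. edgeR called 2018 of 16040 genes tested at an adjusted p under 0.05, or 12.6%, of which 1081 were higher in the Irf1 controls (6.74% of all genes tested) and 937 lower (5.84%). The median log2 fold change over all genes was -0.01. Among called genes the median was 1.38 for those higher and -0.86 for those lower. The groups did not overlap for 10.3% of all genes with higher and 7.16% with lower levels in the Irf1 controls. The calls numbered 782 without Irf1 control 3, 850 without Irf1 control 2, 1067 without Ikbkb control 2, 1180 without Irf1 control 1 and 1342 without Ikbkb control 1. Those 5 fits called 2.65%, 3.11%, 3.24%, 3.95% and 4.22% of genes higher and 2.06%, 1.98%, 3.13%, 3.13% and 3.84% lower. Without Ikbkb control 3 the shares were 6.44% and 6.28%, without Ikbkb control 4 they were 4.62% and 3.61%, and without Irf1 control 4 they were 7.17% and 7.33%. Without Ikbkb control 3 and Irf1 control 4 together 2688 genes were called, 7.72% of genes higher and 8.68% lower.

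**Figure D1:**
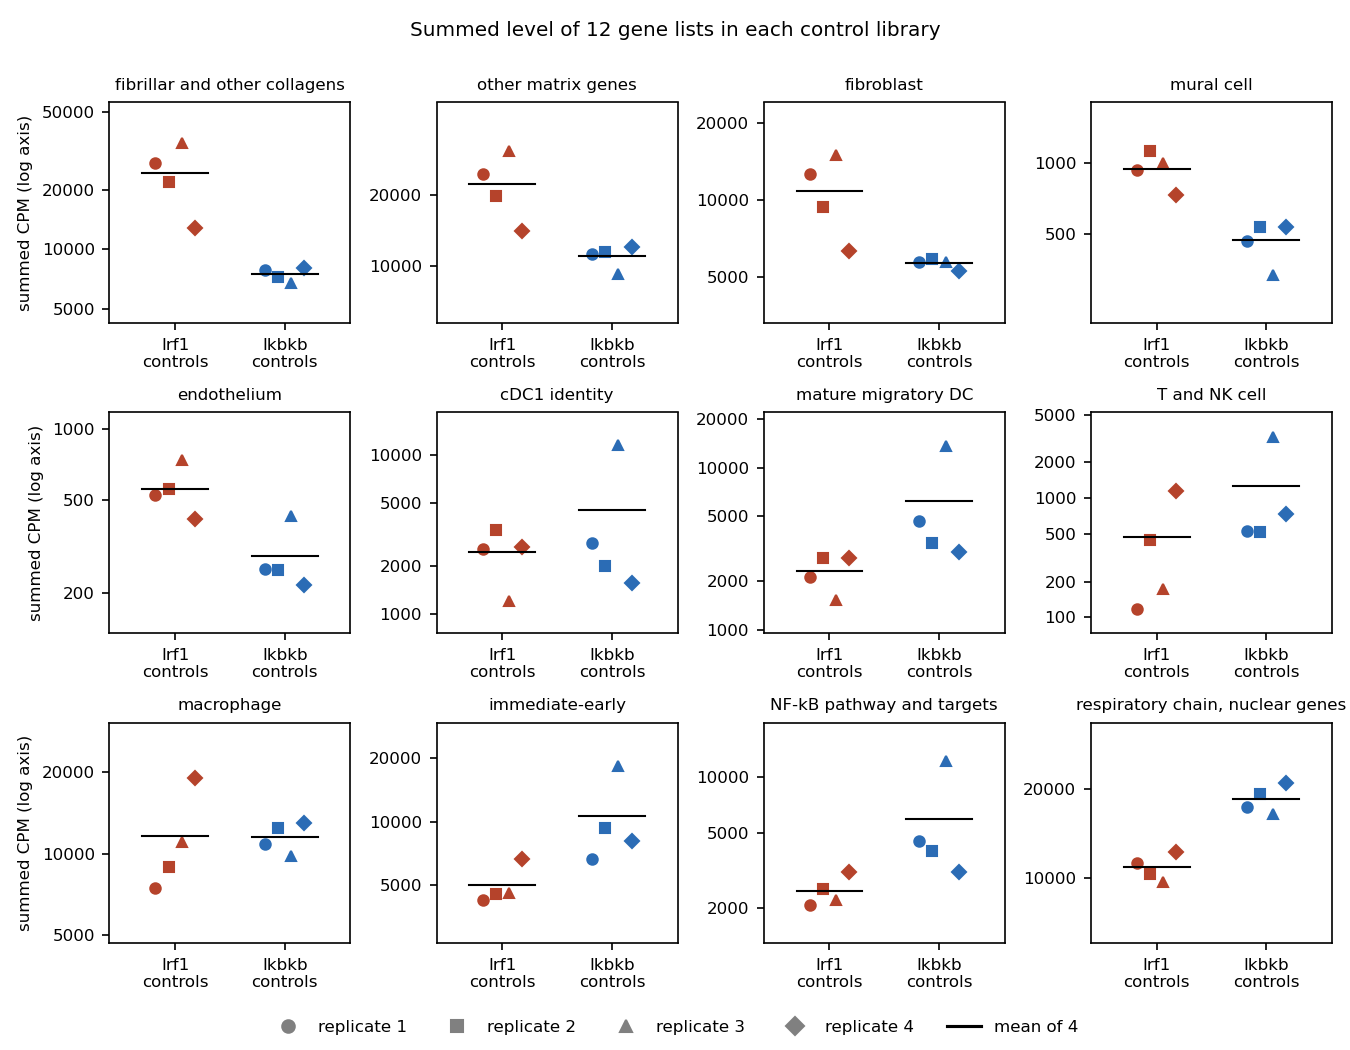
Summed CPM of 12 gene lists in each control library, on log axes, with Irf1 controls in red at the left of each panel and Ikbkb controls in blue at the right. Symbols mark replicates and bars the mean of 4. Collagen sums were 12818 CPM or more in the Irf1 controls and 8010 CPM or less in the Ikbkb controls, and Ikbkb control 3 (triangle) was the highest of the 8 libraries in the cDC1, mature DC, T and NK cell, immediate-early and NF-kB panels.

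Collagen genes had the highest median of the 43 lists. Of 44 genes in the list 30 could be tested, and 19 were called higher in the Irf1 controls and 0 lower. The median log2 fold change of the 30 was 2.08, against -0.01 over all genes, and all 30 means were higher. The list summed to 27504, 22038, 34725 and 12818 CPM in the Irf1 controls, against 7828, 7198, 6760.3 and 8010.2 CPM in the Ikbkb controls. All 4 Irf1 controls lay above all 4 Ikbkb controls, with Irf1 control 4 the lowest of its group. Fibrillar collagens, the rope-like proteins of connective tissue, were led in abundance by Col3a1 with 10475, 5805, 13336 and 3971 CPM in the Irf1 controls, against 2355, 2171, 2830.4 and 2418 CPM in the Ikbkb controls (log2 fold change 1.78 ± 0.35 SE, adjusted p = 0.00834 by edgeR). Its companions Col1a1 and Col1a2, the chains of type I collagen, rose by 1.51 and 1.35 on the log2 scale (edgeR adjusted p = 0.0238 and 0.0103). Col5a1, Col5a2, Col5a3 and Col11a1, which are minor fibrillar chains, rose by 2.05, 2.08, 2.66 and 2.69.

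Basement membrane collagens rose as well. Col4a1, a chain of the sheet-forming type IV collagen, measured 718, 783, 956 and 438 CPM in the Irf1 controls, against 151, 90.9, 41.8 and 120.04 CPM in the Ikbkb controls (log2 fold change 2.84 ± 0.55 SE, adjusted p = 0.00779 by edgeR), a 7.16-fold difference. Its partner Col4a2 rose by 2.27 and Col4a5 by 1.94. Col15a1, which sits under endothelium and muscle, measured 62.6, 74.1, 87.8 and 59.0 CPM in the Irf1 controls, against 11.1, 7.86, 8.36 and 13.2 CPM in the Ikbkb controls (log2 fold change 2.81 ± 0.37 SE, adjusted p = 0.00391 by edgeR). The lowest Irf1 control was more than 4 times the highest Ikbkb control for this gene, and its spread within a group was small. Col6a1, Col6a2 and Col6a3, the chains of beaded filaments, rose by 1.73, 1.80 and 2.38. Of the 14 collagen genes not tested most had few counts, such as Col2a1, a cartilage collagen, with 4 counts over the Irf1 controls and 7 over the Ikbkb controls.

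Collagen transcripts are long, and long transcripts were higher in the Irf1 controls across the genome. The median transcript of the 30 collagens was 6284 bases. With a length offset, in which a curve over transcript length was removed from each library and 2.26% of all genes were called higher and 5.09% lower, 12 of the 19 higher calls were made and the list median was 1.39. Col4a1, Col15a1, Col3a1, Col5a1 and Col6a3 were among the genes called, while Col1a1 had a log2 fold change of 0.89 (edgeR adjusted p = 0.13) and Col4a2 one of 1.56 (edgeR adjusted p = 0.0925). The count was 18 without Ikbkb control 3 and Irf1 control 4 together.

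Other matrix genes moved the same way. Of 50 genes 47 were tested, 24 were called higher and 0 lower, and the median log2 fold change was 1.54. The sums, 24396, 19769, 30554 and 14104 CPM in the Irf1 controls, against 11299, 11532, 9239 and 12086 CPM in the Ikbkb controls, did not overlap, although the osteopontin gene Spp1, which tumour macrophages also express, made up 29.9% of them. Tnc encodes tenascin C, a matrix protein of wounds and tumours. It measured 378, 87.7, 760.0 and 82.4 CPM in the Irf1 controls, against 22.1, 14.3, 19.8 and 26.6 CPM in the Ikbkb controls (log2 fold change 3.98 ± 0.95 SE, adjusted p = 0.0163 by edgeR). This was the largest called rise among the genes named by rule, 15.8-fold, and its highest levels were in Irf1 controls 1 and 3. Without Irf1 control 3 its log2 fold change was 3.15 (edgeR adjusted p = 0.0566), and it was also not called without Ikbkb control 2. Postn, the periostin gene of activated fibroblasts, measured 3388, 1952, 3974 and 1384 CPM in the Irf1 controls, against 638, 679, 381 and 658 CPM in the Ikbkb controls (log2 fold change 2.18 ± 0.38 SE, adjusted p = 0.00614 by edgeR). Sparcl1, a secreted relative of SPARC, measured 1034, 829, 1246 and 449 CPM in the Irf1 controls, against 134, 115, 69.2 and 167 CPM in the Ikbkb controls (log2 fold change 2.87 ± 0.48 SE, adjusted p = 0.00586 by edgeR). Both were at least 2 times as high in the lowest Irf1 control as in the highest Ikbkb control.

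The higher calls included fibronectin (Fn1, 1.84 on the log2 scale), fibrillin 1 (Fbn1, 1.84), elastin (Eln, 1.61) and versican (Vcan, 2.03). They also took in the basement membrane genes Nid1 (1.80), Lama4 (2.18), Lama5 (2.55), Lamb1 (1.54), Lamc1 (1.54) and the perlecan gene Hspg2 (1.73). Laminins and nidogens join type IV collagen in the sheet under endothelium and epithelium. Sparc, which encodes a collagen-binding protein, averaged 4539.6 ± 1418 CPM in the Irf1 controls, against 3332 ± 259 CPM in the Ikbkb controls (SD, n = 4 each) and was not called (log2 fold change 0.45, edgeR adjusted p = 0.222). The length offset kept 11 of the 24 higher calls, among them Tnc, Postn, Eln and Fbn1, while Fn1 (edgeR adjusted p = 0.159) and Vcan (edgeR adjusted p = 0.12) were not called. Without Irf1 control 3 there were 10 higher calls, without Irf1 control 1 or 2 there were 13, and without Ikbkb control 1 or 2 there were 15 and 12.

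Genes that build and cut the matrix followed. Among 29 tested genes of collagen processing and crosslinking 12 were called higher and 0 lower, with a median log2 fold change of 0.92. Lox, the lysyl oxidase that crosslinks collagen and elastin, measured 188, 34.9, 323 and 42.5 CPM in the Irf1 controls, against 30.2, 3.55, 29.6 and 2.55 CPM in the Ikbkb controls (log2 fold change 3.15 ± 0.80 SE, adjusted p = 0.0217 by edgeR). The highest Ikbkb controls, 1 and 3, came close to the lowest Irf1 controls, 2 and 4. Lox was not called without Ikbkb control 2 or Irf1 control 3, and its log2 fold change was 2.42 without Irf1 control 3. Bmp1, which trims the ends of procollagen, measured 322, 223, 431 and 204 CPM in the Irf1 controls, against 99.0, 55.6, 67.4 and 104 CPM in the Ikbkb controls (log2 fold change 1.86 ± 0.29 SE, adjusted p = 0.00505 by edgeR). Adamts2, another procollagen protease, and the prolyl hydroxylase genes P3h1 and P3h3 rose by 1.81, 1.28 and 1.37. In the protease list 11 of 37 tested genes were called higher and 0 lower, with a median of 0.76. Mmp14, the membrane-bound collagenase, measured 796, 623, 939 and 418 CPM in the Irf1 controls, against 204, 202, 152 and 183 CPM in the Ikbkb controls (log2 fold change 1.90 ± 0.34 SE, adjusted p = 0.00629 by edgeR), and the groups did not overlap. The gelatinase gene Mmp2 rose by 1.52, and Adamts1, which cuts proteoglycans, by 1.78. The length offset made 8 and 6 higher calls in these lists and 1 lower call in the first. Leaving out Irf1 control 3 left 4 and 7 higher calls, and for the processing list there were 6 without Irf1 control 1 or 2 and 7 without Ikbkb control 1 or 2. That list had 1 lower call without Ikbkb control 3 or Irf1 control 1.

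Growth factor pathways of connective tissue showed fewer calls. Of 28 genes of TGF-beta signalling 7 were called higher and 1 lower, with a median log2 fold change of 0.37. The ligands Tgfb2 and Inhba rose by 1.73 and 1.27, and the receptors Tgfbr2 and Tgfbr3 by 0.90 and 1.51, while the decoy receptor Bambi fell by 0.97. Under the length offset 0 were called higher and 4 lower, so none of these rises was called then. Without Irf1 control 3 there were 2 higher calls, and without Ikbkb control 2 or Irf1 control 1 or 2 there were 4. Bambi was not called without Ikbkb control 1 or 4 or Irf1 control 1 or 2. Of 34 genes of the Wnt, BMP and Hedgehog pathways 6 were called higher and 0 lower, with a median of 0.52. They were Bmp1, the ligand Bmp2 (0.96), the secreted antagonists Grem1 (1.00), Frzb (1.36) and Dkk2 (1.24), and the transcription factor Gli3 (1.32). Only Bmp1 was called with the length offset. Without Irf1 control 1 or 3 there were 2 calls, and without Ikbkb control 2 there were 3.

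**Figure D2:**
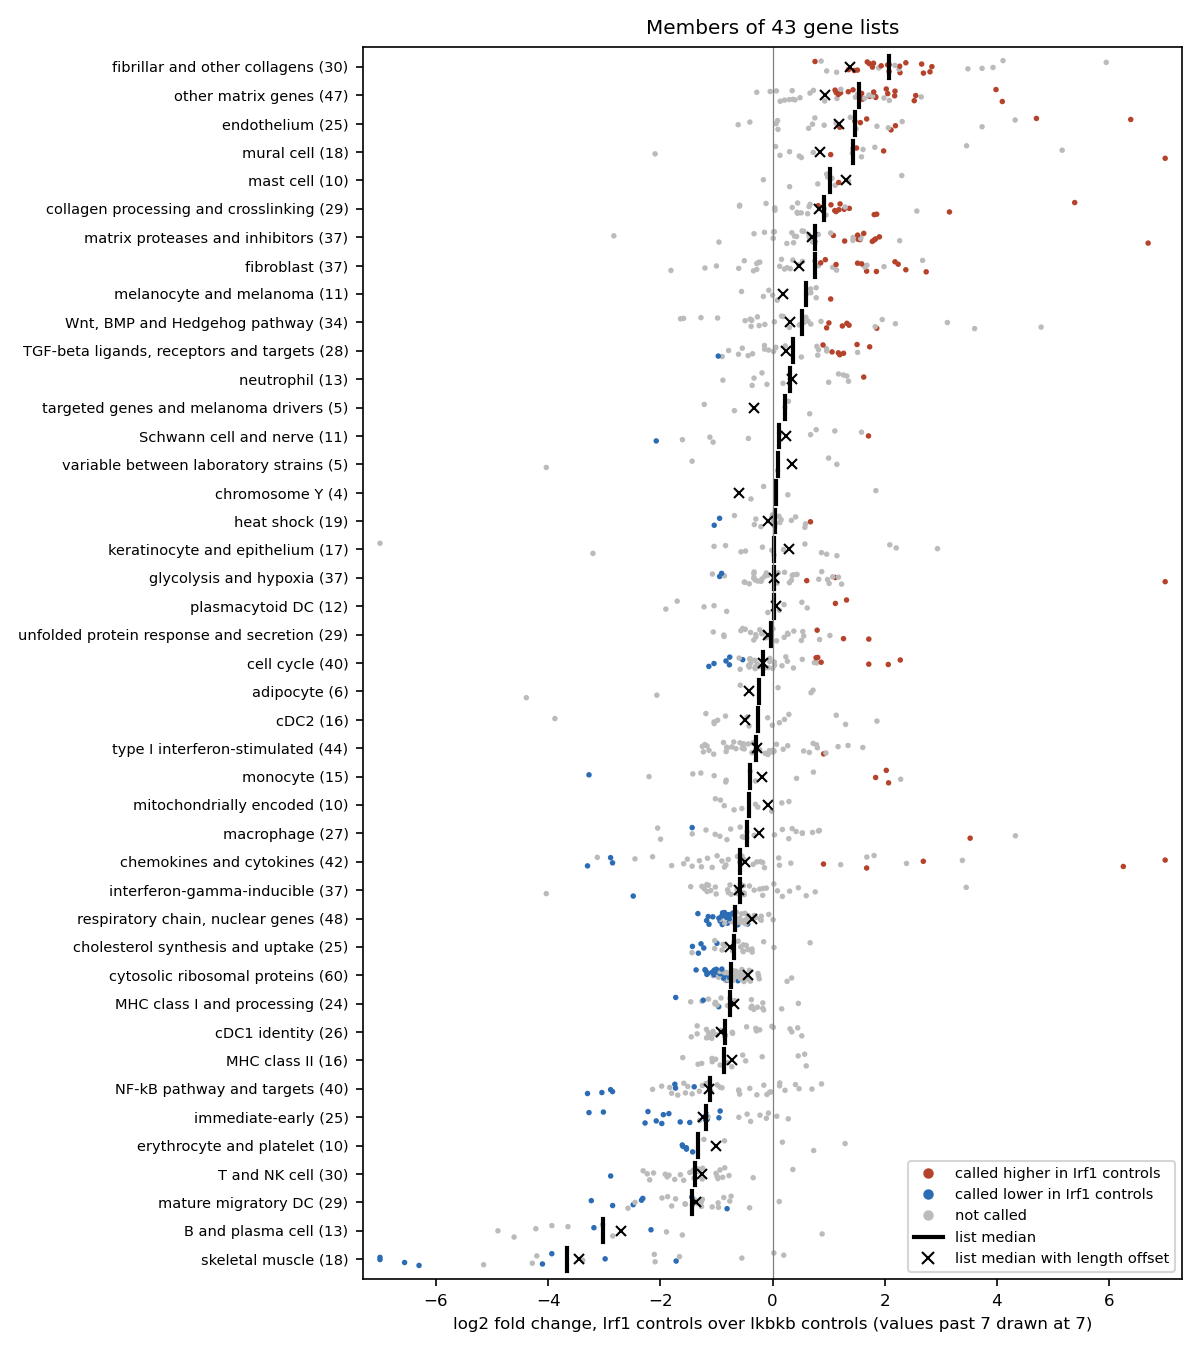
Log2 fold change, Irf1 controls over Ikbkb controls, of every tested member of 43 gene lists, with the number tested in parentheses, ordered by list median. Red and blue points are genes called higher and lower in the Irf1 controls and grey points were not called, black bars are list medians, and crosses are medians with the length offset. Collagens are at the top with a median of 2.08 and skeletal muscle at the bottom with -3.66.

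Markers of the cells that make matrix were higher too, more unevenly. Of 37 tested fibroblast genes 11 were called higher and 0 lower, with a median log2 fold change of 0.75, and the list summed to 12661, 9405, 15012 and 6309 CPM in the Irf1 controls, against 5721, 5855, 5731 and 5281 CPM in the Ikbkb controls. The 4 Ikbkb controls lay close together, and Irf1 control 4 was only just above them. Of the 37 means 27 were higher and 10 lower in the Irf1 controls. Called genes included Lum, the collagen-binding lumican (1.59), Lrrc15, a marker of tumour-associated myofibroblasts (2.24, and 2.87 without Ikbkb control 1), the transcription factor Twist1 (0.94), and the receptor gene Pdgfra (0.86). C3, the central complement gene, measured 209, 133, 412 and 277 CPM in the Irf1 controls, against 31.3, 26.3, 80.8 and 16.1 CPM in the Ikbkb controls (log2 fold change 2.74 ± 0.82 SE, adjusted p = 0.0404 by edgeR). The groups were apart, yet C3 was called in none of the fits that left out 1 library other than Ikbkb control 3, where its log2 fold change was 3.39. The length offset gave 8 calls. Without Irf1 control 3 there were 4, without Irf1 control 1 or 2 or Ikbkb control 1 or 4 there were 7, and without Ikbkb control 3 and Irf1 control 4 together there were 16. The collagen and fibroblast sums were high in the same Irf1 controls, 1 and 3. These lists share members such as Col14a1, and Postn is in both the fibroblast and the other matrix list, so such agreement is partly built in. The part of fibroblast content in the matrix results was not tested.

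Mural cell and endothelial genes were low in level and higher in the Irf1 controls. Mural genes summed to 932, 1130.2, 1001 and 733 CPM in the Irf1 controls, against 469, 539, 336 and 537 CPM in the Ikbkb controls, with no overlap. Of 18 tested 4 were called higher and 0 lower, with a median log2 fold change of 1.43. Pdgfrb, the receptor that recruits pericytes, measured 375, 390.4, 465 and 239.6 CPM in the Irf1 controls, against 123, 159, 75.0 and 164 CPM in the Ikbkb controls (log2 fold change 1.496 ± 0.29 SE, adjusted p = 0.00782 by edgeR). Mcam, a pericyte and endothelial adhesion gene, measured 45.5, 44.9, 51.0 and 37.6 CPM in the Irf1 controls, against 17.2, 17.5, 4.89 and 5.67 CPM in the Ikbkb controls (log2 fold change 1.98 ± 0.44 SE, adjusted p = 0.0126 by edgeR). Abcc9, a channel subunit of pericytes, had 5.66 to 15.9 CPM in the Irf1 controls and was at 0 in 3 of the 4 Ikbkb controls. Without Ikbkb control 2 the list had 1 lower call.

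Endothelial genes summed to 521, 557, 735 and 413 CPM in the Irf1 controls, against 253, 249.99, 427 and 216 CPM in the Ikbkb controls, and the groups overlapped at Irf1 control 4 and Ikbkb control 3. Of 25 endothelial genes 8 were called higher and 0 lower, with a median of 1.47. Plvap, of the diaphragms of leaky capillaries, measured 74.3, 62.0, 82.7 and 40.2 CPM in the Irf1 controls, against 25.3, 19.1, 25.2 and 17.9 CPM in the Ikbkb controls (log2 fold change 1.57 ± 0.31 SE, adjusted p = 0.0081 by edgeR). The VE-cadherin gene Cdh5, which holds endothelial cells together, measured 17.3, 8.94, 18.2 and 8.27 CPM in the Irf1 controls, against 5.31, 2.79, 1.68 and 2.37 CPM in the Ikbkb controls (log2 fold change 2.11 ± 0.62 SE, adjusted p = 0.0377 by edgeR). Flt1, a VEGF receptor gene, measured 34.7, 19.9, 45.9 and 15.9 CPM in the Irf1 controls, against 7.79, 4.77, 11.6 and 1.31 CPM in the Ikbkb controls (log2 fold change 2.19 ± 0.52 SE, adjusted p = 0.0165 by edgeR). All 4 Irf1 controls were above all 4 Ikbkb controls for each of these genes. Cdh5 was called only in the fits without Ikbkb control 1 or Irf1 control 4 among those that left out 1 library, and Flt1 was not called without Ikbkb control 2 or Irf1 control 3. The length offset made 3 mural and 4 endothelial calls. The endothelial count ranged from 3 to 7 with any 1 library left out, and was 3 without Ikbkb control 2 or Irf1 control 2 or 3, 4 without Ikbkb control 4 or Irf1 control 1, and 5 without Ikbkb control 1 or 3.

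**Figure D3:**
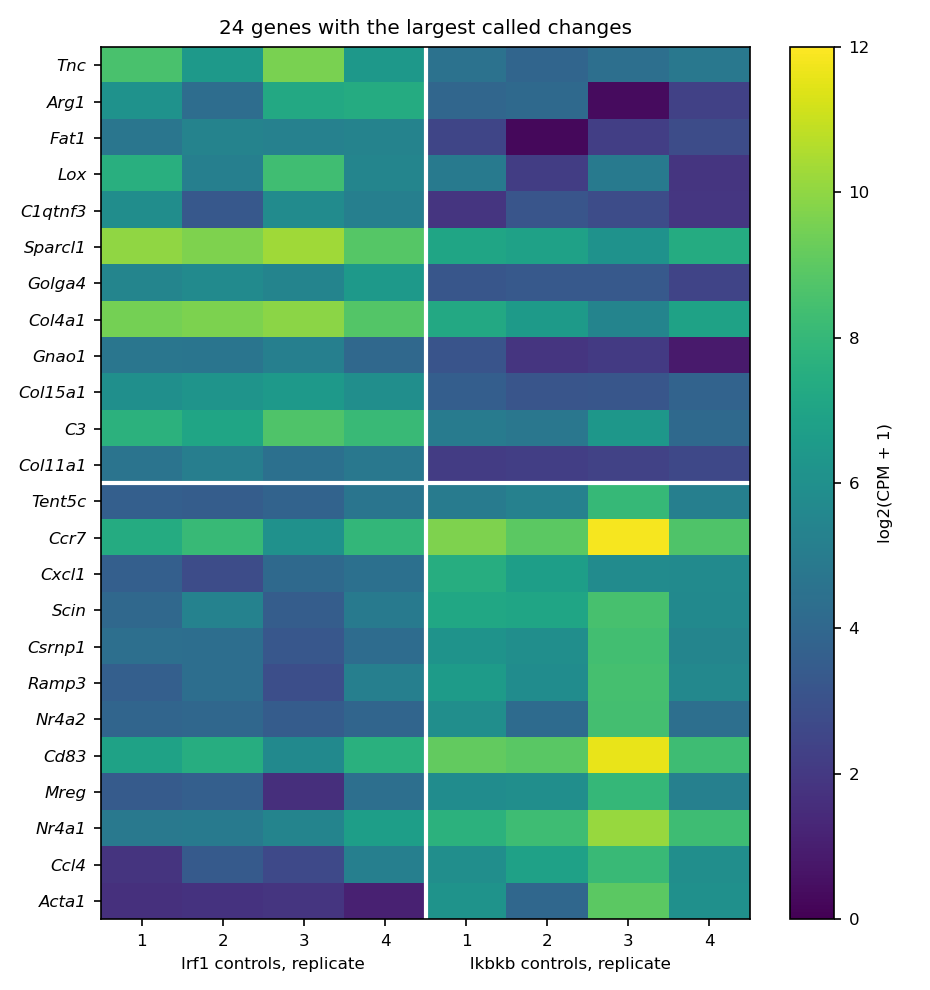
Log2(CPM + 1) of the 12 called genes with the largest rise (above the white line) and the 12 with the largest fall (below it) in each control library, with the 4 Irf1 controls at the left. The genes were chosen for having no overlap between the groups. Ikbkb control 3 held the highest level of 11 of the 12 lower genes in the lower right block.

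The lists of cDC1 and cDC2 genes gave 0 calls with all libraries in the fit, and their medians turned on 1 library. Of 26 genes of cDC1 identity 0 were called, with a median log2 fold change of -0.85, and the median was 0.39 without Ikbkb control 3 and 0.31 without Irf1 control 4 as well. Irf8, the transcription factor that cDC1s require, measured 405, 586, 163 and 527 CPM in the Irf1 controls, against 545, 376, 2511 and 278 CPM in the Ikbkb controls (log2 fold change -1.14 ± 0.74 SE, adjusted p = 0.333 by edgeR). Clec9a, the receptor by which cDC1s sense dead cells, measured 11.53, 7.15, 0.603 and 15.1 CPM in the Irf1 controls, against 7.48, 5.68, 67.6 and 13.1 CPM in the Ikbkb controls (log2 fold change -1.45 ± 0.94 SE, adjusted p = 0.338 by edgeR). The groups overlapped for both genes. Of 16 cDC2 genes 0 were called, and the median of -0.25 became 0.36 without Ikbkb control 3. The lymphotoxin gene Ltb was called lower without Irf1 control 4. Sirpa, a brake on phagocytosis and the most abundant of them, measured 72.0, 132, 112 and 267 CPM in the Irf1 controls, against 115, 144, 116 and 101 CPM in the Ikbkb controls. Of 12 genes of plasmacytoid dendritic cells 2 were called higher, the transcription factor genes Tcf4 (1.32) and Runx2 (1.12), which other cells also express, and 0 with the length offset. That count was 1 with any 1 library left out except Ikbkb control 3, and there was also 1 lower call without Irf1 control 4.

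Genes of mature migratory dendritic cells stood out more. All but 1 of the 29 tested genes had a lower mean in the Irf1 controls, 7 were called lower and 0 higher, and the median was -1.43. Their sums were 2106, 2758, 1527 and 2775 CPM in the Irf1 controls, against 4649.9, 3427, 13647 and 2993 CPM in the Ikbkb controls. The groups did not overlap, although Irf1 controls 2 and 4 were just below the lowest Ikbkb control. Ccr7, the receptor that leads mature dendritic cells to the lymph node, measured 164, 272, 67.0 and 246 CPM in the Irf1 controls, against 814, 506, 3669.7 and 412 CPM in the Ikbkb controls (log2 fold change -2.85 ± 0.80 SE, adjusted p = 0.0309 by edgeR). Mreg, melanoregulin, measured 10.03, 11.4, 2.09 and 19.6 CPM in the Irf1 controls, against 56.6, 60.4, 251 and 36.0 CPM in the Ikbkb controls (log2 fold change -3.23 ± 0.86 SE, adjusted p = 0.0253 by edgeR). Cd274, the PD-L1 gene, fell by 2.48 on the log2 scale (edgeR adjusted p = 0.0442). Without Ikbkb control 3 the calls fell to 1, Anxa3, an annexin gene, and Ccr7, Mreg and Cd274 had log2 fold changes of -1.62, -2.24 and -1.17 (edgeR adjusted p = 0.115, 0.0704 and 0.22), with a list median of -0.68. There was also 1 call without Irf1 control 1, 2 or 3, and there were 2 without Ikbkb control 3 and Irf1 control 4 together. Without Irf1 control 4 alone there were 9. The length offset gave 5 calls.

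Macrophage genes gave few calls. They summed to 7502, 8927, 11042 and 18959 CPM in the Irf1 controls, against 10823, 12368, 9778 and 13007 CPM in the Ikbkb controls, with Irf1 control 4 the highest of the 8 libraries, and 43% of the sum was Spp1. Of 27 tested 1 was called higher and 1 lower, with a median of -0.46. Arg1, the arginase of wound-type macrophages, measured 68.5, 18.7, 151 and 165 CPM in the Irf1 controls, against 14.7, 15.9, 0.263 and 4.05 CPM in the Ikbkb controls (log2 fold change 3.52 ± 0.97 SE, adjusted p = 0.0295 by edgeR). Irf1 control 2 was close to Ikbkb controls 1 and 2, and the other Irf1 controls were far above. Tlr4, the endotoxin receptor gene, measured 20.7, 18.7, 22.7 and 13.3 CPM in the Irf1 controls, against 56.0, 65.8, 39.1 and 42.96 CPM in the Ikbkb controls (log2 fold change -1.43 ± 0.29 SE, adjusted p = 0.00882 by edgeR). Without Irf1 control 4 there were 2 higher and 6 lower calls, with a median of -1.297, and without Ikbkb control 3 there were 2 higher calls. Without both together there were 2 higher and 5 lower calls. Arg1 was not called without Irf1 control 3 or Ikbkb control 4.

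Of 15 monocyte genes 3 were called higher and 1 lower. The higher ones were the matrix genes Fn1 and Vcan and Ace, the angiotensin-converting enzyme (2.07), and the lower one was Nr4a1. There were 2 lower calls without Irf1 control 4. Among 13 tested neutrophil genes the only call was Mmp9, a gelatinase also made by macrophages, with 919, 649.7, 799 and 327 CPM in the Irf1 controls, against 234, 186, 137 and 316 CPM in the Ikbkb controls (log2 fold change 1.63 ± 0.36 SE, adjusted p = 0.012 by edgeR). The defining neutrophil genes Ly6g and Camp had 25 and 65 counts in Irf1 control 4 and at most 5 in any other control library. Of 10 mast cell genes Gata2, a transcription factor of several blood and vessel lineages, was called higher (1.18), and it was not called without Ikbkb control 1 or 3 or Irf1 control 1, 2 or 3. Of the 10 means 9 were higher, with a median log2 fold change of 1.02, and 0 were called with the length offset. The list sums overlapped, with 141 to 350 CPM in the Irf1 controls and 106 to 187 CPM in the Ikbkb controls. Between the deleted libraries of both sets 4 of the 10 were called higher, against 5.04% of all genes, with a median of 2.08.

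Lymphocyte genes were lower in mean. The T and NK cell list summed to 118, 445, 173 and 1154 CPM in the Irf1 controls, against 529, 521, 3282 and 738 CPM in the Ikbkb controls, and the groups overlapped. Of 30 tested 1 was called lower and 0 higher, with a median log2 fold change of -1.38. The call was Ctla4, a brake on T cells, with 1.89, 9.48, 6.51 and 22.5 CPM in the Irf1 controls, against 12.4, 36.6, 218 and 31.6 CPM in the Ikbkb controls (log2 fold change -2.89 ± 0.86 SE, adjusted p = 0.0393 by edgeR). It was not called without Ikbkb control 3 (edgeR adjusted p = 0.189), without Ikbkb control 2 or without Irf1 control 1, 2 or 3. The list median was -0.32 without Ikbkb control 3 and -2.43 without Irf1 control 4, when 4 genes were called lower, the others being Trbc2 and the T cell receptor complex genes Cd3d and Cd3g. Genes of B and plasma cells summed to 32.8, 65.9, 30.3 and 113 CPM in the Irf1 controls, against 170.3, 139, 1009 and 396 CPM in the Ikbkb controls, with no overlap. Ikbkb control 3 was again the highest. Of 13 tested 2 were called lower, the antibody genes Ighm (-2.168) and Iglc2 (-3.19), and 1 or 0 were called with any 1 library left out other than Irf1 control 4.

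Immediate-early genes, which cells switch on within minutes of a stimulus, were lower in the Irf1 controls. Of 25 tested 15 were called lower and 0 higher, and 23 had a lower mean, with a median log2 fold change of -1.19. Their sums were 4257, 4549.9, 4606 and 6630.3 CPM in the Irf1 controls, against 6632, 9289, 18393 and 8057 CPM in the Ikbkb controls. Irf1 control 4 and Ikbkb control 1 almost met, and the other libraries were apart. Nr4a1, an orphan nuclear receptor gene, measured 27.5, 30.2, 41.1 and 104 CPM in the Irf1 controls, against 209, 305, 1133 and 312 CPM in the Ikbkb controls (log2 fold change -3.27 ± 0.63 SE, adjusted p = 0.00779 by edgeR), a 9.67-fold lower level. Fos, a subunit of the factor AP-1, measured 792, 924, 646 and 1149 CPM in the Irf1 controls, against 1296, 2227, 2661 and 1849.8 CPM in the Ikbkb controls (log2 fold change -1.19 ± 0.25 SE, adjusted p = 0.00933 by edgeR). Egr2 and Klf2, both zinc finger factors, fell by 2.07 and 1.95, Btg2, which restrains growth, by 2.27, and the MAP kinase phosphatase gene Dusp1 by 1.48. Nr4a2, of the same receptor family as Nr4a1, measured 14.2, 15.0, 10.3 and 14.1 CPM in the Irf1 controls, against 59.4, 17.1, 338 and 19.9 CPM in the Ikbkb controls (log2 fold change -3.02 ± 0.81 SE, adjusted p = 0.0261 by edgeR), and was not called without Ikbkb control 3 (edgeR adjusted p = 0.13). Csrnp1, a nuclear protein induced by growth signals, measured 19.8, 19.5, 8.68 and 18.0 CPM in the Irf1 controls, against 71.0, 59.2, 329 and 42.6 CPM in the Ikbkb controls (log2 fold change -2.93 ± 0.55 SE, adjusted p = 0.00742 by edgeR). Both genes had their highest level in Ikbkb control 3 and their lowest in the Irf1 controls. Without that library the log2 fold changes of Nr4a1, Nr4a2, Csrnp1, Btg2 and Egr2 were -2.45, -1.26, -1.80, -1.39 and -1.49, and the list median was -0.77. Nr4a1 had -3.89 without Irf1 control 4. Under the length offset 12 were called lower. There were 7 without Ikbkb control 3, 5 without Irf1 control 1, 2 or 3, and 13 without Ikbkb control 3 and Irf1 control 4 together.

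The NF-kB list held 40 tested genes, of which 7 were called lower and 0 higher, with 33 lower means and a median of -1.12. The sums, 2066, 2507, 2194 and 3099.9 CPM in the Irf1 controls, against 4536, 4032, 12234 and 3091 CPM in the Ikbkb controls, met at Irf1 control 4 and Ikbkb control 4. Nfkbia, which encodes the inhibitor that IKK-beta marks for destruction and is itself an NF-kB target, measured 209.8, 239, 263 and 340.0 CPM in the Irf1 controls, against 775, 814, 1337 and 566 CPM in the Ikbkb controls (log2 fold change -1.73 ± 0.24 SE, adjusted p = 0.00391 by edgeR). The groups were well apart. Tnfaip3, the A20 feedback gene, measured 41.0, 74.4, 60.8 and 102 CPM in the Irf1 controls, against 198, 195, 399 and 139 CPM in the Ikbkb controls (log2 fold change -1.74 ± 0.36 SE, adjusted p = 0.00884 by edgeR). Cxcl1, a neutrophil attractant, measured 11.4, 5.91, 16.03 and 20.7 CPM in the Irf1 controls, against 178, 105, 54.7 and 53.0 CPM in the Ikbkb controls (log2 fold change -2.85 ± 0.61 SE, adjusted p = 0.0103 by edgeR). For Cxcl1 the highest Ikbkb values were in replicates 1 and 2, not in replicate 3.

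The other calls were Ccl4, a chemokine for T cells and monocytes, with 2.496, 9.63, 5.34 and 35.1 CPM in the Irf1 controls, against 59.2, 114, 284 and 60.6 CPM in the Ikbkb controls (log2 fold change -3.30 ± 0.81 SE, adjusted p = 0.0185 by edgeR), and Cd83, a surface marker of mature dendritic cells (-3.04), the cytokine gene Il1b (-2.89) and the nuclear inhibitor gene Nfkbiz (-1.40). Without Ikbkb control 3 the list median was -0.52, and Cd83 and Il1b had log2 fold changes of -1.73 and -1.80 and were not called (edgeR adjusted p = 0.0755 and 0.115). The other 5 were called, Ccl4 with -2.57, and Tnip1, an inhibitor of the pathway, was called higher. Without Irf1 control 4 Ccl4 and Il1b had -4.47 and -4.04. The list gave 4 lower calls without Irf1 control 1 or 3, 3 without Irf1 control 2 and 11 without Irf1 control 4, and the length offset gave 9. The NF-kB subunit genes Rela, Relb, Rel, Nfkb1 and Nfkb2 were not called.

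The promoters of 5 of these lower genes are printed because they carry letters that the 2 programs are known for. Each window runs from 250 bases before to 50 after the RefSeq start, 5′ to 3′ on the gene's strand, in build GRCm38.p6. Capitals mark the kappa B consensus, the NF-kB motif, in the first 3 and the cyclic AMP response element TGACGTCA in the last 2, both searched on both strands.
Nfkbia, chr12:55492598-55492897, minus strand: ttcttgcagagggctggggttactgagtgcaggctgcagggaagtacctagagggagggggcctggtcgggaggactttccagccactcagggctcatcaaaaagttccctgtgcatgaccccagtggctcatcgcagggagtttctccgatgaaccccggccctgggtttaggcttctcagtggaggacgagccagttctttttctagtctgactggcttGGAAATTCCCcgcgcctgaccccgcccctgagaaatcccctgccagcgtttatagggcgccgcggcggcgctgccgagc
Tnfaip3, chr10:19015361-19015660, minus strand: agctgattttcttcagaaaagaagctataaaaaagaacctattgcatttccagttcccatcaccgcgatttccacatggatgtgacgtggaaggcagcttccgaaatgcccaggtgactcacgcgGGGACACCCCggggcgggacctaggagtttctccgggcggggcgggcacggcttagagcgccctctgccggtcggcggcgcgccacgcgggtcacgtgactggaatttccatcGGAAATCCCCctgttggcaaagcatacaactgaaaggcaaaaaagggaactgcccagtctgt
Cxcl1, chr5:90890995-90891294, plus strand: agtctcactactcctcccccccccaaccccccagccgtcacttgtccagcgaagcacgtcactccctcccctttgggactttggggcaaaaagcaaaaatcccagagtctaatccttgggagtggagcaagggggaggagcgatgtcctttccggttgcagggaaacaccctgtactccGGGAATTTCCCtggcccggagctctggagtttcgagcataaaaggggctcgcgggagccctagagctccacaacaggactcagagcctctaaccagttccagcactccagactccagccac
Dusp1, chr17:26508423-26508722, minus strand: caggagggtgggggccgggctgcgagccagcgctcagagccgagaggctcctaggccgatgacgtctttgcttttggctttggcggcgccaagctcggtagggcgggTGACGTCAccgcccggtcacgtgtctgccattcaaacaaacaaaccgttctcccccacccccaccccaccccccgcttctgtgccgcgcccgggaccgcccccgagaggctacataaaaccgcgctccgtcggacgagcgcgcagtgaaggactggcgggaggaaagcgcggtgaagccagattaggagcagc
Btg2, chr1:134079106-134079405, minus strand: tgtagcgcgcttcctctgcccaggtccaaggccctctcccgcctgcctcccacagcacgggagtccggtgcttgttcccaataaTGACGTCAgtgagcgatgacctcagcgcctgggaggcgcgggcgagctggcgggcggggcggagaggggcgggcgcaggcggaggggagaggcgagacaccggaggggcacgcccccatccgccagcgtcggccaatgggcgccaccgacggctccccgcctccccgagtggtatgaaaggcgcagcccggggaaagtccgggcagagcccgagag
The 2 kappa B matches of Cxcl1 overlap each other. The kappa B consensus was in 3 of the 5 windows of called NF-kB genes, which covered 4 of the 7 genes, and in 4.51% of all 32851 promoter windows. TGACGTCA was in 2 of the 18 windows of called immediate-early genes, which covered 14 of the 15 genes, and in 1.79% of all windows. In the same 18 windows the CArG box, the serum response factor motif, was in 5, which belong to Egr2 and Zfp36, against 1.63% of all windows, and the kappa B consensus was in 3, those of Fos, Fosb and Nr4a1. The AP-1 motif TGANTCA was in 0 of those 18 windows and in 7.81% of all. A match describes these letters and is not evidence of binding.

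Chemokine and cytokine genes were called in both directions. Of 42 tested 5 were called higher and 3 lower. Ccl11, the eotaxin gene of fibroblasts, measured 99.8, 50.8, 124 and 87.0 CPM in the Irf1 controls, against 15.2, 28.2, 54.8 and 14.9 CPM in the Ikbkb controls (log2 fold change 1.68 ± 0.47 SE, adjusted p = 0.0301 by edgeR). Csf1, the macrophage growth factor, rose by 0.91, and Cxcl5, Cxcl14 and Ccl24 were called higher at low levels. The lower calls were Ccl4, Il1b and Cxcl1. Under the length offset 4 were higher and 2 lower. The higher count was 0 without Ikbkb control 2 or Irf1 control 1 or 3, 1 without Ikbkb control 1 or 4 and 3 without Ikbkb control 3. The lower count was 1 without Irf1 control 2 or 3, 9 without Irf1 control 4, and 6 without Irf1 control 4 and Ikbkb control 3 together. Ccl11 was called only in the fits without Ikbkb control 3 or Irf1 control 2 or 4 among those that left out 1 library.

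Antigen presentation and interferon genes gave few calls. Among 44 type I interferon-stimulated genes 1 was called higher and 0 lower, with a median of -0.30. It was Ddx58, the RNA sensor RIG-I, with 68.0, 85.6, 97.4 and 81.1 CPM in the Irf1 controls, against 38.4, 32.8, 62.2 and 43.3 CPM in the Ikbkb controls (log2 fold change 0.91 ± 0.24 SE, adjusted p = 0.0229 by edgeR). That call was lost without Ikbkb control 1, 2 or 4 or Irf1 control 2 or 3, and there were 3 higher calls without Ikbkb control 3, when the list median turned to 0.29. Without Irf1 control 4 there was also 1 lower call. Of 37 interferon-gamma-inducible genes the only call was Cd274, which among the fits without 1 library was called only in that without Ikbkb control 4. There were 3 other calls without Irf1 control 4. Of 24 genes of MHC class I presentation 3 were called lower, Tapbpl (-1.73), Psme2 (-1.24) and H2-M3 (-0.96), with 0 calls without Ikbkb control 3 or Irf1 control 1, 2 or 3 and 1 without Ikbkb control 4. Tapbpl had -0.99 without Ikbkb control 3. Of 16 MHC class II genes 0 were called, and without Irf1 control 4 there was 1, the cathepsin gene Ctss. Cd74, the invariant chain, measured 3741, 6066, 1673 and 9284 CPM in the Irf1 controls, against 5149, 3992, 21125 and 4089 CPM in the Ikbkb controls, and the groups overlapped.

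Nuclear genes of the respiratory chain were lower in the Irf1 controls with little spread. Of 48 tested 21 were called lower and 0 higher, 47 had a lower mean, and the median log2 fold change was -0.67. They summed to 11290.4, 10332, 9691 and 12263 CPM in the Irf1 controls, against 17325, 19129.8, 16394 and 20869.5 CPM in the Ikbkb controls. The highest Irf1 control was below the lowest Ikbkb control, and Ikbkb control 3 did not stand apart. Cyc1, the cytochrome c1 of complex III, measured 273, 254, 235 and 229 CPM in the Irf1 controls, against 511, 545, 472 and 710.5 CPM in the Ikbkb controls (log2 fold change -1.18 ± 0.15 SE, adjusted p = 0.00391 by edgeR). Sdhd, a membrane anchor of complex II, measured 281, 219, 209 and 343 CPM in the Irf1 controls, against 672, 658, 505 and 815 CPM in the Ikbkb controls (log2 fold change -1.33 ± 0.22 SE, adjusted p = 0.00563 by edgeR). Atp5c1, a subunit of the ATP synthase, fell by 1.13, and Ndufb9 of complex I by 1.15. The median transcript of the list was only 1003 bases. Over all genes the median log2 fold change was -0.50 for transcripts up to 1001 bases and -0.39 for those of 1002 to 1482 bases. With the length offset the list median was -0.36, and 12 genes were called lower, Cyc1, Sdhd and Atp5c1 among them. Without Irf1 control 4 there were 39, without Irf1 control 2 or 3 there were 12, without Irf1 control 1 or Ikbkb control 2 there were 13, and without Irf1 control 4 and Ikbkb control 3 together there were 39.

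Mitochondrially encoded genes followed in mean but not in calls. They summed to 13159.5, 15078, 14213 and 26567 CPM in the Irf1 controls, against 23333, 27237, 8542 and 32293 CPM in the Ikbkb controls. Irf1 control 4 was high and Ikbkb control 3 low, so the groups overlapped, and 0 of 10 tested genes were called, against 7 lower without those 2 libraries and 1 without Ikbkb control 3 alone. Cytosolic ribosomal proteins gave 18 lower and 0 higher calls of 60, with a median of -0.74. Rps3, of the small subunit, measured 785, 623, 660.3 and 1171 CPM in the Irf1 controls, against 1878, 1955, 1105 and 2477 CPM in the Ikbkb controls (log2 fold change -1.19 ± 0.29 SE, adjusted p = 0.0165 by edgeR), and was not called without Irf1 control 2 or 3. Rplp0, of the stalk, fell by 1.17. Under the length offset the list median was -0.44 and 6 were called lower. There were 3 without Irf1 control 2 or 3, 4 without Ikbkb control 4 or Irf1 control 1, 7 without Ikbkb control 2, 10 without Ikbkb control 1, 38 without Irf1 control 4 and 47 without Irf1 control 4 and Ikbkb control 3 together. Ribosomal protein genes share reads with many pseudogene copies, so single values are uncertain.

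Genes of sterol and glucose metabolism were called in part. Of 25 genes of cholesterol synthesis and uptake 5 were called lower and 0 higher, with a median of -0.69. Msmo1, a sterol oxidase, measured 90.4, 67.6, 85.7 and 67.5 CPM in the Irf1 controls, against 325, 161, 114 and 238 CPM in the Ikbkb controls (log2 fold change -1.43 ± 0.33 SE, adjusted p = 0.0154 by edgeR). Cyp51, Pmvk and Sc5d of the same pathway fell by 1.32, 1.28 and 0.99, and Insig1, its feedback sensor, by 1.23. The length offset gave 7 calls, and there were 2 without Irf1 control 2, Msmo1 not among them, and 3 without Irf1 control 3. There was 1 higher call without Irf1 control 4. In the glycolysis and hypoxia list 3 were called higher and 2 lower of 37, with a median of 0.02 that ran from -0.28 to 0.22 with 1 library left out. Ldha, the lactate dehydrogenase, measured 1865, 1521, 2034 and 1398 CPM in the Irf1 controls, against 3452, 3388, 3198 and 3081 CPM in the Ikbkb controls (log2 fold change -0.94 ± 0.20 SE, adjusted p = 0.00926 by edgeR). Hk1, a hexokinase that starts glycolysis, rose by 1.12. The higher count was 1 with the length offset, without Ikbkb control 2 or 4, or without Irf1 control 1 or 3.

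Cell cycle genes were called in both directions, 6 higher and 6 lower of 40, with a median of -0.17. Mki67, Cenpe and Cenpf, genes of dividing cells with transcripts of 10061, 7910 and 11130 bases, rose by 2.28, 2.06 and 1.72. Pcna, Tyms and Mcm5, which act in DNA replication and have transcripts of 1518, 3163 and 3381 bases, fell by 0.53, 0.76 and 0.83. With the length offset 1 was called higher and 3 lower. The higher count was 1 without Irf1 control 3, 2 without Irf1 control 2, 3 without Irf1 control 1 and 10 without Irf1 control 4. The lower count was 0 without Ikbkb control 4 or Irf1 control 3, 2 without Ikbkb control 1 or 2 or Irf1 control 1 or 2, 4 without Irf1 control 4 and 10 without Ikbkb control 3. Of 19 heat shock genes 2 were called lower and 1 higher, 11 had a higher mean, and the median was 0.04. The lower ones were the cytosolic chaperones Dnajb1 and Hspa8, which fell by 1.04 and 0.94. Hspa8 measured 310.1, 306, 292 and 293 CPM in the Irf1 controls, against 540.3, 535, 649 and 588 CPM in the Ikbkb controls (log2 fold change -0.94 ± 0.14 SE, adjusted p = 0.00505 by edgeR). Hsp90b1, the chaperone of the secretory pathway, rose by 0.68, and was not called without Ikbkb control 2 or 4 or Irf1 control 1, 2 or 3. Among 29 genes of the unfolded protein response and secretion 3 were called higher, Creb3l1 (1.72), Creb3l2 (1.26) and Sel1l (0.79). With the length offset 1 was higher and 3 lower. The higher count was 5 without Irf1 control 4 and 1 without any other single library except Ikbkb control 3. It was 7 without Ikbkb control 3 and Irf1 control 4 together. There was 1 lower call without Ikbkb control 4 or Irf1 control 4.

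Traces of muscle and blood were lower in the Irf1 controls. Skeletal muscle genes summed to 42.0, 55.7, 44.4 and 65.2 CPM in the Irf1 controls, against 256, 81.6, 1164 and 219 CPM in the Ikbkb controls, with no overlap. Acta1, the actin of muscle fibres, measured 2.19, 2.33, 2.57 and 1.13 CPM in the Irf1 controls, against 70.0, 15.1, 504 and 64.4 CPM in the Ikbkb controls (log2 fold change -6.30 ± 0.98 SE, adjusted p = 0.00505 by edgeR), a 79.0-fold lower level and the largest fall among the genes named by rule. Without Ikbkb control 3 Acta1 was 24.1-fold lower (log2 fold change -4.59, edgeR adjusted p = 0.00417). Of 18 tested 8 were called lower and 0 higher, with a median of -3.66, or -2.44 without Ikbkb control 3. Ckm, the muscle creatine kinase, measured 0.344, 0.497, 0 and 0.142 CPM in the Irf1 controls, against 9.74, 0, 74.5 and 9.53 CPM in the Ikbkb controls. The length offset gave 6 calls, and there were 4 without Ikbkb control 3 or Irf1 control 3 and 5 without Irf1 control 2. The adult myosin genes Myh1, Myh2 and Myh4 had at most 19 counts in any control library. Genes of erythrocytes and platelets gave 5 lower calls of 10. They were the 4 haemoglobin genes and Alas2, the first enzyme of haem synthesis. Hbb-bs measured 108, 77.5, 126 and 247 CPM in the Irf1 controls, against 443, 455, 328 and 469 CPM in the Ikbkb controls (log2 fold change -1.60 ± 0.35 SE, adjusted p = 0.0118 by edgeR). The haemoglobin genes are near-identical in pairs, so their shares are uncertain. The length offset gave 5 calls, and without Irf1 control 3 there were 2.

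Markers of other tissues were few. Of 17 tested keratinocyte genes and of 6 adipocyte genes 0 were called. The leading keratinocyte genes Lgals7 and Cldn1 and the leading adipocyte genes Scd1 and Lpl, none of them called, had log2 fold changes of -0.18, 0.03, -0.58 and 0.72. Of 5 genes that vary between laboratory strains and of 5 in the list of targeted and driver genes 0 were called, and 1 of the first was called higher without Ikbkb control 2. Among 11 tested nerve genes Ncam1, an adhesion gene also found on NK cells, rose by 1.71, and Egr2, which is also an immediate-early gene, fell, with 1 more lower call without Ikbkb control 3. The pigment cell genes Tyr, Tyrp1, Dct and Mlana had at most 2 counts over a whole control group, although the tumours were melanoma. The melanoma list otherwise rested on Axl, a receptor gene of many cells, with 80.5% of its sum. Its only call was Cspg4, also in the mural list, with 107, 167, 125 and 114 CPM in the Irf1 controls, against 72.1, 45.6, 53.2 and 79.3 CPM in the Ikbkb controls (log2 fold change 1.04 ± 0.28 SE, adjusted p = 0.0287 by edgeR). Cspg4 had a log2 fold change of 0.21 with the length offset, and was not called without Ikbkb control 2 or 3 or Irf1 control 2 or 3. The chromosome Y genes Ddx3y, Kdm5d and Uty were detected in all 8 control libraries although the labels call the hosts female. They were not called, and Ddx3y measured 56.3, 38.4, 70.8 and 30.2 CPM in the Irf1 controls, against 97.5, 86.5, 31.3 and 40.4 CPM in the Ikbkb controls. Xist, an X chromosome RNA made in female cells, was also detected in all 8. It measured 20.6, 24.5, 13.9 and 94.9 CPM in the Irf1 controls, against 20.4, 6.69, 34.8 and 18.6 CPM in the Ikbkb controls (log2 fold change 0.94, edgeR adjusted p = 0.328). Which cells these transcripts came from was not tested.

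Irf1 and Ikbkb are intact in both groups by label. Irf1 (ENSMUSG00000018899, mm10 chr11:53770014-53778374, plus strand) had 141, 234, 152 and 268 CPM in the Irf1 controls, against 392, 271, 892 and 296 CPM in the Ikbkb controls (log2 fold change -1.22 ± 0.41 SE, adjusted p = 0.062 by edgeR). Every Irf1 control was below every Ikbkb control, and the difference did not pass the threshold. The adjusted p of edgeR was 0.218 without Ikbkb control 3. Ikbkb (ENSMUSG00000031537, mm10 chr8:22659212-22706589, minus strand) had 71.9, 61.6, 66.8 and 102 CPM in the Irf1 controls, against 45.1, 44.5, 121 and 48.6 CPM in the Ikbkb controls (log2 fold change 0.22 ± 0.32 SE, adjusted p = 0.703 by edgeR). Ikbkb control 3 was above every Irf1 control and the other 3 Ikbkb controls were below them. Around the floxed genes, 15 of the 222 tested genes within 10 Mb of Irf1 were called higher and 15 lower, or 13.5%, and 6 of 108 within 10 Mb of Ikbkb were higher and 4 lower, or 9.26%, against 12.6% of all genes. Near Irf1 the smallest p-values were those of Mprip (1.29) and Ncor1 (1.31), and near Ikbkb those of Hook3 (1.26) and Vdac3 (-0.77).

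Transcript length moved with the comparison over the whole genome. Genes were put into 10 bins of equal size by transcript length. In the bin of the shortest transcripts, up to 1001 bases, 0.499% were called higher and 5.49% lower, with a median log2 fold change of -0.50. In the bin of the longest, from 6345 bases, 22.5% were called higher and 0.748% lower, with a median of 0.83. Over 16037 genes with a length, Spearman's rho between transcript length and log2 fold change was 0.39, across genes, which are not independent replicates. It was 0.38 over the 15056 genes in no list. The trend was present in single libraries. The bin of the longest minus that of the shortest ran from 0.27 to 0.77 on the log2 scale in the Irf1 controls, against -0.76 to -0.29 in the Ikbkb controls. With the length offset 1180 genes were called, 363 higher and 817 lower, so the share of higher calls was 30.8% in place of 53.6%. Of the 2018 calls, 847 were made in the same direction with the offset. Which of length and cell makeup carried the other calls was not tested.

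**Figure D4:**
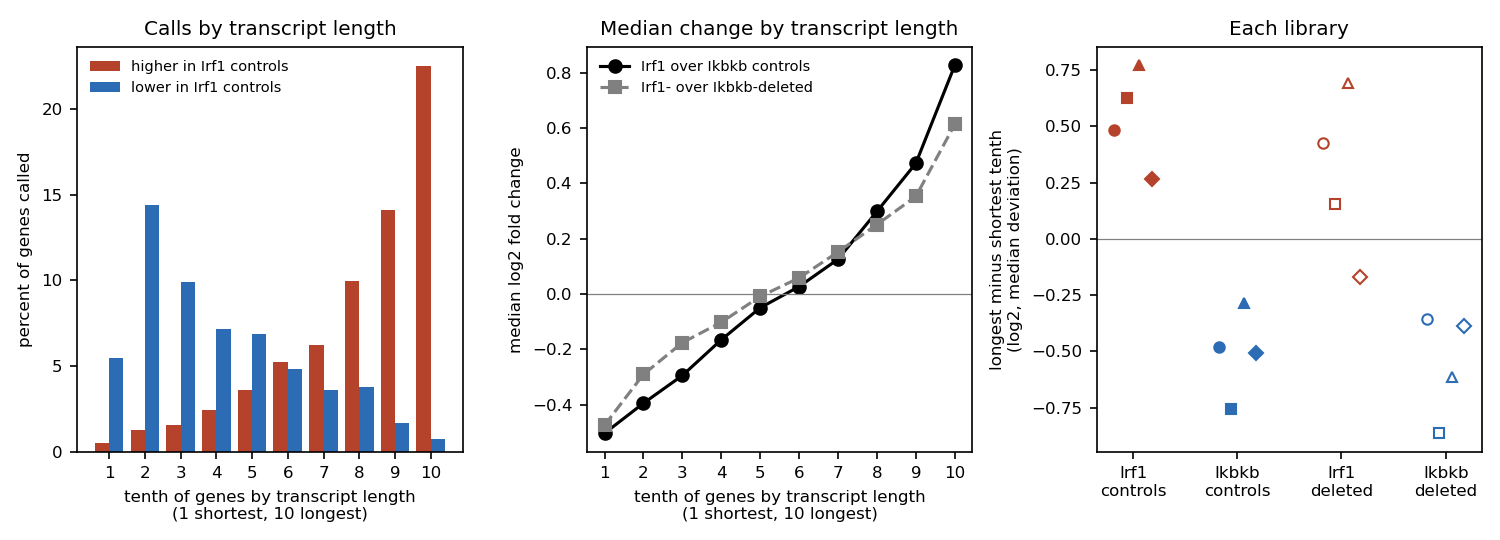
Left, percent of genes called higher (red) and lower (blue) in the Irf1 controls in 10 bins of genes in order of transcript length. Middle, median log2 fold change per bin, for Irf1 over Ikbkb controls (black) and for Irf1-deleted over Ikbkb-deleted libraries (grey). Right, longest minus shortest bin in each of the 16 libraries, with filled symbols for controls. Values are median log2 deviations from each gene's mean over the 8 control libraries. All 4 Irf1 controls are above 0 and all 4 Ikbkb controls below.

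Some of the largest differences lay outside the lists. Fat1, a giant cadherin of epithelia and mesenchyme, measured 24.9, 40.4, 37.3 and 40.8 CPM in the Irf1 controls, against 4.69, 0.203, 3.63 and 5.98 CPM in the Ikbkb controls (log2 fold change 3.31 ± 0.72 SE, adjusted p = 0.0113 by edgeR). C1qtnf3, a secreted adipokine-like protein of connective tissue, measured 58.5, 8.79, 53.7 and 35.3 CPM in the Irf1 controls, against 2.61, 7.91, 5.89 and 2.74 CPM in the Ikbkb controls (log2 fold change 3.03 ± 0.73 SE, adjusted p = 0.0172 by edgeR). Golga4, a tether of the Golgi apparatus with a transcript of 7583 bases, measured 43.2, 52.5, 41.6 and 87.8 CPM in the Irf1 controls, against 8.37, 9.23, 9.14 and 4.55 CPM in the Ikbkb controls (log2 fold change 2.84 ± 0.58 SE, adjusted p = 0.00892 by edgeR), and Gnao1, a G protein subunit, rose by 2.82, or 3.53 without Ikbkb control 1. C1qtnf3 was not called without Irf1 control 3. The rule that named these genes required groups with no overlap, so that they are apart is no finding. With the length offset the log2 fold changes of Fat1, C1qtnf3, Golga4 and Gnao1 were 2.1703, 3.07, 2.06 and 2.28 (edgeR adjusted p = 0.0358, 0.0231, 0.0291 and 0.0216). On the lower side Scin, an actin-severing protein, measured 15.8, 38.4, 10.4 and 28.8 CPM in the Irf1 controls, against 141, 131, 368 and 50.2 CPM in the Ikbkb controls (log2 fold change -2.88 ± 0.73 SE, adjusted p = 0.0212 by edgeR). Ramp3, a partner of the adrenomedullin receptor, fell to a mean of 18.0 ± 12.6 CPM in the Irf1 controls, against 137 ± 142 CPM in the Ikbkb controls (SD, n = 4 each, log2 fold change -2.93 ± 0.72 SE, adjusted p = 0.0185 by edgeR). Tent5c, a poly(A) polymerase of antibody-secreting cells, had 11.53, 10.6, 13.2 and 24.7 CPM in the Irf1 controls, against 30.7, 37.2, 258 and 35.3 CPM in the Ikbkb controls (log2 fold change -2.59 ± 0.74 SE, adjusted p = 0.0333 by edgeR). Ikbkb control 3 held the highest level of all 3 lower genes, and none of them was called without it, with log2 fold changes of -2.19, -1.89 and -1.20 for Scin, Ramp3 and Tent5c (edgeR adjusted p = 0.0507, 0.0509 and 0.156).

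The 8 deleted libraries show the same comparison of sets in samples whose levels did not enter the control contrast, with a deletion in each set. There edgeR called 1376 genes between Irf1-deleted and Ikbkb-deleted libraries, or 8.58%, with 808 higher (5.04%) and 568 lower (3.54%). Of the 2018 genes called in the controls, 1995 (98.9%) had the same direction in the deleted libraries, against 77.7% of all genes. A total of 960 genes were called in both with the same direction, which is 47.6% of the calls in the controls and 69.8% of those in the deleted libraries. Both sets of calls came from 1 fit of all 16 libraries, with a shared filter, scaling and estimate of spread, so they were not obtained separately. With the 8 controls alone 1016 of the 2018 calls were made in the same direction. For the genes called higher in the controls the median log2 fold change in the deleted libraries was 1.07, and for those called lower -0.72. The test of the difference between both contrasts called 0 genes by edgeR (455, or 2.84%, at an unadjusted p under 0.05), 0 by limma voom and 12 by DESeq2 (0.0125% of genes higher and 0.0623% lower). A difference that misses the threshold does not show that the contrasts were alike.

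By list, 13 of 30 collagens, 23 of 47 other matrix genes and 9 of 37 fibroblast genes were called higher in the Irf1-deleted libraries. Lower there were 10 of 25 immediate-early, 7 of 40 NF-kB and 16 of 48 respiratory chain genes. The shares over all genes were 5.04% higher and 3.54% lower. Only 1 of 18 mural and 4 of 25 endothelial genes were called higher, against 4 and 8 in the controls. Lower calls were made for 4 of 60 ribosomal protein genes and 1 of 10 erythrocyte and platelet genes, against 18 and 5. In the B and plasma cell and MHC class I lists 0 were called, against 2 and 3. Col15a1 measured 22.7, 58.4, 50.8 and 31.2 CPM in the Irf1-deleted libraries, against 4.99, 4.59, 13.4 and 7.23 CPM in the Ikbkb-deleted libraries (log2 fold change 2.43 ± 0.37 SE, adjusted p = 0.00727 by edgeR). Nfkbia measured 221, 265, 315 and 285 CPM in the Irf1-deleted libraries, against 910.1, 824, 741 and 630.2 CPM in the Ikbkb-deleted libraries (log2 fold change -1.52 ± 0.24 SE, adjusted p = 0.00795 by edgeR). Cyc1 measured 274, 329.5, 284 and 366 CPM in the Irf1-deleted libraries, against 551, 554, 641 and 528 CPM in the Ikbkb-deleted libraries (log2 fold change -0.86 ± 0.15 SE, adjusted p = 0.00949 by edgeR). The groups of deleted libraries did not overlap for these 3 genes, as for 9.02% of all genes on the higher and 8.86% on the lower side, and the genes were chosen after their values were seen. Skeletal muscle gave 2 lower calls there and mature migratory dendritic cells 3. Tnc, with 95.03, 165, 175 and 54.1 CPM in the Irf1-deleted libraries, against 0.578, 26.2, 38.1 and 6.28 CPM in the Ikbkb-deleted libraries, was not called (log2 fold change 2.78 ± 0.90 SE, adjusted p = 0.0664 by edgeR).

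**Figure D5:**
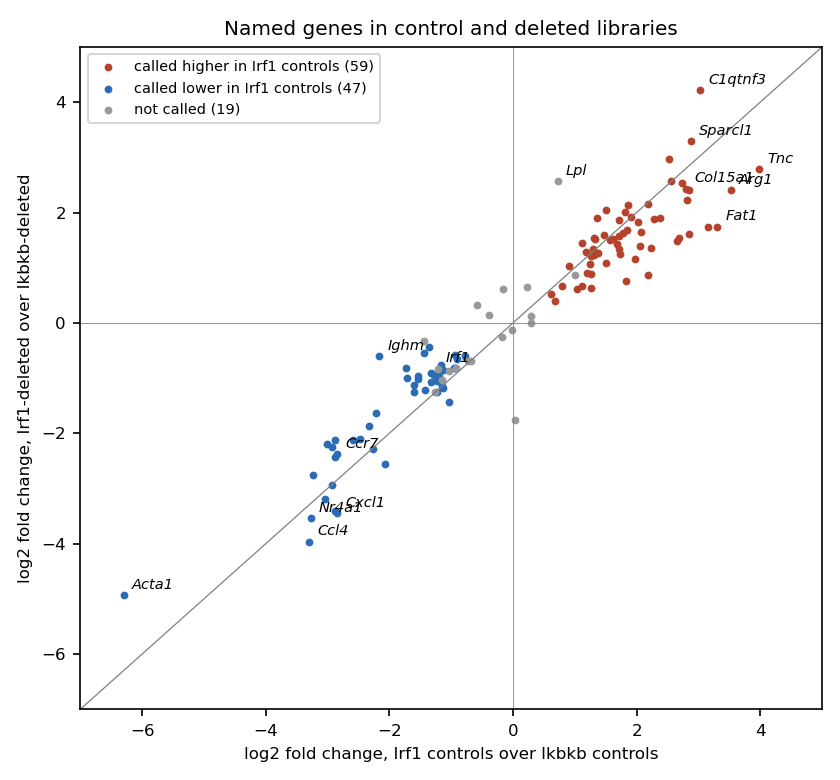
Log2 fold change of 125 genes named by rule, Irf1 over Ikbkb controls on the horizontal axis and Irf1-deleted over Ikbkb-deleted libraries on the vertical axis, with the line of equal change. Red and blue points were called higher (59) and lower (47) in the Irf1 controls and grey points (19) were not called. The axes share no library, and Acta1 at the lower left had -6.30 in the controls and -4.93 in the deleted libraries.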

How the data were processed

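RNA of sorted cells from YUMM1.7 tumours was measured by RNA-seq in 16 libraries, 4 in each of 4 groups. The authors deposited a table of counts per gene for 32697 genes, aligned to mm10. STAR 2.5.3a, HTSeq 0.6.1p1, cutadapt 1.10 and bcl2fastq 2.17.1.14 are the tools named, per the submitters' processing notes. The annotation release and the strand setting are not given in the sources used here, so overlapping and antisense genes cannot be told apart. The libraries came from amplified, tagmented cDNA with no molecular identifiers, so counts include PCR copies. All count columns belonged to the 16 samples. Transcript lengths and coordinates came from GENCODE M21, which matched 32684 gene identifiers and left 13 unmatched. Promoter sequences came from RefSeq.

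Counts were tested in R 4.3.3 with the quasi-likelihood test of edgeR 4.0.16, fitted to all 16 libraries with a mean per group, TMM scaling, a minimum count of 10, a minimum total of 15 and Benjamini-Hochberg adjustment over all 16040 genes tested. A gene was called at an adjusted p under 0.05. The fit was tested on simulated counts with known changes in the Irf1 controls, and the list summaries were not. There edgeR recovered 14.7% of genes changed 2-fold and 54.1% of those changed 4-fold, and called 0 unchanged genes. DESeq2 recovered 28.4% and 68.4%, and 43 of its 137 calls were unchanged genes. The simulated counts were drawn independently for each gene, with few changed genes, no length trend and no outlying library. They therefore give no rate of false calls among the real calls. Alternatives were relative log expression and upper-quartile scaling, no filter on low counts, a robust fit, limma 3.58.1 with voom and quality weights, a stricter filter (5 CPM in at least 4 libraries), DESeq2 1.42.0, a minimum fold of 1.5, the 8 controls alone, and each control library left out in turn. Chosen after seeing the data were leaving out Ikbkb control 3 and Irf1 control 4 together, and offsets from lowess curves (span 0.3) over transcript length and over length and GC content.

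The members, the 43 gene lists and the rule for named genes were chosen with earlier results of these data known. The rule took Irf1 and Ikbkb, the 12 called genes with the largest change on each side whose groups did not overlap and whose mean log2 CPM reached 3, up to 4 called genes per list with that level or the 2 most abundant where none was called, and the 2 genes with the smallest p within 10 Mb of each floxed gene. This gave 125 genes, 121 from the first 3 parts and 4 from the last. Other genes in the text, such as Col3a1, Nfkbia, Tnfaip3, Fos, Dusp1, Xcr1, Clec9a, Abcc9, Cdh5, Ckm, Lum, Pdgfra, Bambi and the chromosome Y genes, were chosen after their values were seen. The text gives values for part of the genes that the rule named, and 1 is not reported here. Each library was counted as 1 sample by its label. Libraries of a group differed by more than sampling noise, which does not show that they came from separate animals.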

Additional observations from a re-analysis of the deposited data

Results flagged for a closer look

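Of 138 values examined in the 4 libraries of each control group, 25 lay so far from the other 3 that the gap passed Dixon's 95% critical value, which chance alone passes in about 1 of 20 groups. In the Irf1 controls, replicate 4 held high sums for erythrocyte and platelet genes (560.2 CPM), immediate-early genes (6630.3 CPM) and mitochondrially encoded genes (26567 CPM), and a low sum for heat shock genes (4724 CPM). Irf1 control 3 held a low level of Csrnp1 (8.68 CPM).

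The other values were all in Ikbkb control 3. It held high sums for the cDC1 list (11664 CPM), mature migratory dendritic cells (13647 CPM), T and NK cells (3282 CPM), skeletal muscle (1164 CPM), MHC class I (33088 CPM) and class II genes (66413 CPM), NF-kB genes (12234 CPM) and chemokines (7166 CPM). Its sums for the monocyte list (3033 CPM) and the erythrocyte and platelet list (597 CPM) also stood apart. Single genes with an extreme level in this library were Ikbkb (121 CPM), Acta1 (504 CPM), Nr4a1 (1133 CPM), Mreg (251 CPM), Cd83 (3112 CPM), Nr4a2 (338 CPM), Ramp3 (348 CPM), Csrnp1 (329 CPM), Ccr7 (3669.7 CPM) and Tent5c (258 CPM).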

How the results depend on the processing

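The 2018 calls between controls became 1199 with no filter on low counts (720 higher, 479 lower), 3171 with DESeq2 (1673 and 1498), 4130 with limma voom (2167 and 1963), 33 with a minimum of 1.5-fold (26 and 7), 1069 with the 8 controls alone (683 and 386), 1180 with the length offset (363 and 817) and 1021 with the length and GC offset (321 and 700). Without Ikbkb control 3 and Irf1 control 4 there were 1423 lower calls. Leaving out 1 control library gave 782 to 2404 calls, 440 to 1189 higher and 331 to 1215 lower. The higher share of calls, 53.6%, was 63.9% with the 8 controls alone. That fit tested 14598 genes. Its lower calls included 4 of 60 ribosomal protein, 7 of 25 immediate-early, 13 of 48 respiratory chain and 6 of 40 NF-kB genes. For mature migratory dendritic cells they were 3 of 29 and for MHC class I 0 of 24. Higher calls were 17 of 27 collagens, 21 of 47 other matrix genes, 3 of 23 endothelial and 0 of 38 chemokine and cytokine genes. The median of all genes was 0.12 with limma voom and 0.11 without Ikbkb control 3. The 1376 calls between deleted libraries became 718 with no filter, 2490 with DESeq2, 2990 with limma voom and 4 with a minimum of 1.5-fold, and DESeq2 called 12 genes for the difference between contrasts.

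Of 106 named genes called, 51 to 106 stayed called under each alternative except the minimum of 1.5-fold, which left 6. Among the named genes reported, directions turned for Cldn1 (-0.0289 with limma voom, -0.12 with the length offset, -0.34 to 0.29 with 1 library left out), Sirpa (-0.18 with limma voom, -0.19 without both libraries, -0.18 to 0.52 with 1 left out), Lgals7 (0.29 with the length offset, 0.0210 with GC added, -0.33 to 0.0282 with 1 left out), Cspg4 (-0.0658 with length and GC) and mt-Co1 (0.0102 with no filter, 0.23 and 0.47 with those offsets, -0.28 to 0.16 with 1 left out). With 1 library left out Cd74 ran from -1.16 to 0.24 and Irf8 from -1.45 to 0.0800, both above 0 only without Ikbkb control 3. The cause was not tested. Of 817 list medians under alternatives 59 moved by more than the spread between libraries. No paired analysis was possible because the labels give no replicate numbers that the groups share. List genes under the filter on low counts were not tested, and some had most of their counts in 1 library of a group, such as Vsig4 with 21 in Irf1 control 3 and 77 in Ikbkb control 3.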
